A study of Homo sapiens with 2 samples.

Results

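The 5 enzymes that return the sulphur of methylthioadenosine (MTA) to methionine were described in HT-29 tumours grown in mice on a full diet or on a diet lacking methionine, tryptophan and niacin. They were taken by gene symbol, and all 5 were found among the 26255 symbols of the deposited tables: MTAP, MRI1, APIP, ENOPH1 and ADI1. HT-29 is an established human colon cancer line. Its cells, cultured in complete medium, were placed under the skin of the back of female NOD SCID mice, a strain with no T or B cells that was 5 weeks old when obtained. One group ate normal food and the other food without the 3 nutrients. The study's text gives the time on the diets as 2 weeks and, in another sentence, the experiment as 3 weeks. There was 1 RNA sequencing library for each diet, so n = 1 throughout, no value has a replicate error, and no test could be made between the diets. The sources used here do not give whether a library held 1 tumour or several. The diet cannot be told apart from any other difference between the tumours behind the libraries.

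MTA is left over when decarboxylated S-adenosylmethionine (SAM) gives up its aminopropyl group to make spermidine and spermine. MTAP splits MTA into adenine and a sulphur-bearing sugar phosphate, and MRI1, APIP, ENOPH1 and ADI1 in turn isomerise, dehydrate, dephosphorylate and oxidise that sugar phosphate to a keto acid that a transaminase turns into methionine. The route lets a cell that makes polyamines keep its methionine sulphur. MTAP lies beside the tumour suppressor CDKN2A and is often lost with it in tumours.

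Levels are in FPKM, fragment counts scaled by transcript length and library depth. Being per length, they allow an approximate comparison between genes, which depends on transcript lengths that the sources used here do not give. The log2 ratio was log2 of (depleted + 1)/(normal + 1). Genes that averaged 1 FPKM or more over both libraries, 12414 in all, were kept for comparison. The smallest steps in the tables show that 1 fragment was worth 1.04 times as much FPKM on the depleted diet. A separate estimate, from low genes with a single annotated transcript, put the libraries at about 7.05e+06 fragments (normal) and 6.89e+06 fragments (depleted). Both estimates are approximate and differ slightly in the relative depth they give. From these a 95% range of counting error was worked out for each ratio, using the shortest coding transcript of at least 1000 nt where there was one. It covers counting only, not the spread between tumours, and is narrow for abundant genes. How many of all genes kept have a range clear of 1 was not worked out.

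All 5 enzymes were expressed under both diets, and their values differed little between the 2 libraries. MTAP, APIP and ADI1 had higher values on the depleted diet, and ENOPH1 and MRI1 lower values. A size mark was set at a log2 ratio of 0.32 either way, which is 25% higher or 20% lower once 1 FPKM is added to both values. A scarce gene therefore needs a larger relative difference in FPKM to reach it. No member reached this mark, while 6.94% of the 12414 genes kept passed it as higher and 7.15% as lower. When the libraries were brought to the same summed FPKM, those shares were 9.01% and 5.63%, and no member was among them. None reached 2-fold, which 0.894% of the genes did either way. The counting ranges of the ratios of MRI1 (0.55 to 1.57), MTAP (1.02 to 1.38) and APIP (0.97 to 1.33) run past 25% higher. A difference of that size is therefore not excluded for these genes, and that of MRI1 also runs past 20% lower. The median log2 ratio of the 5 was 0.04, against -0.003 over all genes kept, and 3 of 5 lay above 0, as did 49.4% of all genes kept. At the same summed FPKM these medians were 0.09 and 0.04.

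MTAP, the phosphorylase that opens the route, was 29.9 FPKM in the tumour library of the normal diet and 35.5 FPKM in that of the depleted diet. This was the largest difference of the 5, a 1.19-fold ratio with a log2 ratio of 0.24. The 95% range of counting error for the ratio ran from 1.02 to 1.38, just clear of 1. A log2 ratio at least as high was found in 12.0% of all genes kept. Of 2944 genes that averaged 20 to 60 FPKM, without short RNAs, the middle 95% had log2 ratios from -0.35 to 0.33, and MTAP lay inside that range.

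The 250 bases before the MTAP start are shown because MTAP differed most. They come from RefSeq (GRCh38.p14, chr9:21802386-21802635, plus strand), a build other than the hg19 of the expression tables. Capitals mark the matches, on either strand, to any of 6 motifs searched.
MTAP: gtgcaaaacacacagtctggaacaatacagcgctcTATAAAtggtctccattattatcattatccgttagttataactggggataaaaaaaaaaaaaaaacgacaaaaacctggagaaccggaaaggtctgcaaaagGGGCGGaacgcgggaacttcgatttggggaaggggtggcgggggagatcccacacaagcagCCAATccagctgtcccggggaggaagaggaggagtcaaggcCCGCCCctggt

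The window held 2 GC boxes (GGGCGG, found in 42.6% of 35116 RefSeq promoter windows of the same length), 1 CCAAT box (CCAAT, 32.0%) and 1 TATA box sequence (TATAAA, 10.7%), the last 215 bases before the start. The E-box bound by MYC and its relatives (CACGTG, 6.34% of windows) did not match in the MTAP or APIP window. It matched once in the windows of MRI1 and ADI1 and at 2 places in that of ENOPH1. The core of the amino acid response element that ATF4 binds (TGATGNAA, 3.14%) and a heat shock element (GAANNTTC, 5.78%) matched in none of the 5 windows. In the ADI1 window the GC box and CCAAT box matches overlap. The MTAP window had 50% G and C with 11 CpG, and the others had 66.8% to 71.6% with 21 to 33 CpG, against medians of 58% and 11 over all windows. These are matches of letters in 1 window per gene and say nothing of binding.

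MRI1, the isomerase of the second reaction, had the lowest RNA level of the salvage enzymes, which does not give the amount of its protein. Its level was 2.43 FPKM under normal food and 2.26 FPKM under depleted food (log2 ratio -0.07). Its mean level stood at percentile 10.4 of the genes kept, while the other four stood between percentiles 77.8 and 87.3. The RNA of the next enzyme above it was 12.1-fold higher on the normal diet and 14.8-fold higher on the depleted diet. At this level the library held about 29.8 fragments of MRI1 on the normal diet and 27.0 on the depleted diet for a transcript of 1735 nt. The counting range of its ratio, 0.55 to 1.57, is therefore wide, and a difference inside it was not detectable at this depth.

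The 250 bases before the MRI1 start (RefSeq, GRCh38.p14, chr19:13764272-13764521, plus strand) are shown because they hold a tandem repeat. Capitals mark 7 copies of the same 12 bases, each beginning 24 bases after the one before.
MRI1: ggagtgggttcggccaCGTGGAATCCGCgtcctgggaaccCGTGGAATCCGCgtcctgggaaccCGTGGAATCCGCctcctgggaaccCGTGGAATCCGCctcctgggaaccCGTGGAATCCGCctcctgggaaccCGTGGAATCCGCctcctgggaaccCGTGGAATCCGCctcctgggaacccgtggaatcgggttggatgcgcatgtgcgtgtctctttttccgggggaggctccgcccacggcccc

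The E-box match of MRI1 ran into the first copy, 236 bases before the start, and its GC box match lay 14 bases before the start. Whether the repeat bears on the level of MRI1 was not tested.

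APIP, the dehydratase, was 29.5 FPKM under normal food and 33.5 FPKM under depleted food. Its log2 ratio of 0.18 was the second highest of the 5, and its counting range of 0.97 to 1.33 included 1. MTAP and APIP lay side by side in level under both diets, with MTAP 1.01-fold above APIP on the normal diet and 1.06-fold above it on the depleted diet. APIP was named for its binding to APAF1, the scaffold that activates caspase-9. APAF1 was 5.27 and 5.84 FPKM and CASP9, the caspase, 3.10 and 3.61 FPKM on the normal and depleted diets. CASP1, of the inflammasome, was 1.63 and 0.872 FPKM, past the size mark as lower, but its counting range of 0.21 to 1.39 included 1.

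ENOPH1, which carries out an enolase and a phosphatase reaction, was 44.1 FPKM under normal food and 40.2 FPKM under depleted food. It had the lowest log2 ratio of the 5, -0.13, with a counting range of 0.80 to 1.04 that included 1. ADI1, the iron-dependent dioxygenase that releases the keto acid, was the highest of the 5 at 51.7 and 53.3 FPKM. Its log2 ratio was 0.04 and its counting range 0.94 to 1.13. ADI1 protein also binds the tail of the membrane protease MMP14, whose RNA was 8.17 and 8.72 FPKM.

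The order of levels was the same under both diets: ADI1, ENOPH1, MTAP, APIP and MRI1. ENOPH1 stood 1.47-fold above MTAP on the normal diet and 1.13-fold above it on the depleted diet. With 1 library per diet, neighbours in this order have no spread to be judged by, and the gap between MTAP and APIP was smaller than the difference of either gene between the diets. The summed level of the 5 was 157.7 FPKM under normal food and 164.8 FPKM under depleted food.

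Of 10 genes listed as feeding MTA into the route, 9 were kept. The depleted diet had higher values for 6 and lower values for 3, with a median log2 ratio of 0.14 and none past the size mark, where 49.4% of all genes kept had a ratio above 0. Among the 6 with higher values, AMD1 and SRM had counting ranges clear of 1. AMD1, which decarboxylates SAM, had the highest ratio, at 51.5 and 62.8 FPKM (log2 ratio 0.28, counting range of the ratio 1.09 to 1.36). SRM, spermidine synthase, was 36.4 and 43.2 FPKM (0.24), the same log2 ratio as MTAP to 2 decimals. SMS, spermine synthase, was 119 and 114 FPKM (-0.06, counting range 0.88 to 1.05), and ODC1, which makes putrescine, 135 and 143 FPKM (0.08). SRM and SMS are the enzymes that release MTA. The lowest ratio was that of DTWD1, a tRNA modifying enzyme that also releases MTA, at 9.82 and 8.24 FPKM (-0.23).

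The adenine that MTAP sets free is rejoined to ribose phosphate by APRT, which was 181 and 197 FPKM (0.12). The enzymes that make that ribose phosphate donor, PRPS1 and PRPS2, were also higher, PRPS2 at 4.47 and 5.73 FPKM (0.30) with a counting range of 0.86 to 1.92. All 3 genes of this branch had higher values, where 49.4% of all genes kept had a ratio above 0. None of the 3 was past the size mark, and their median was 0.14. Without the added 1 FPKM the log2 ratio of PRPS2 was 0.36, above 0.32.

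Several transaminases can turn the keto acid into methionine. Of 8 listed, 5 were kept, 3 higher and 2 lower, where 49.4% of all genes kept had a ratio above 0. The 5 had a median of 0.08 and none past the size mark. GOT2, of mitochondria, was the highest at 47.5 and 50.3 FPKM (0.08). BCAT2 was 22.0 and 20.6 FPKM (-0.09) and GOT1 19.8 and 21.8 FPKM (0.13). KYAT1, listed as CCBL1, was 3.33 and 4.32 FPKM (0.30), and its relative KYAT3, listed as CCBL2, 17.7 and 14.3 FPKM (-0.29). The counting ranges of both included 1, at 0.85 to 1.98 and 0.62 to 1.05. Without the added 1 FPKM the log2 ratio of KYAT1 was 0.38, above 0.32, and that of KYAT3 was -0.31. TAT, the liver enzyme, was 0.0497 FPKM and listed at 0, IL4I1 0.558 and 0.127 FPKM, and BCAT1 listed at 0 in both libraries.

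The methionine that the route returns is made into SAM. Of 8 genes of that step and of the rest of the cycle, 5 were kept, 4 higher and 1 lower. Over all genes kept, 49.4% had a ratio above 0. The 5 had a median of 0.21 and none past the size mark. MAT2A, the SAM synthetase, was 159 and 184 FPKM, and its regulatory partner MAT2B 33.6 and 38.8 FPKM, both with a log2 ratio of 0.21. MTRR, which reactivates methionine synthase, was 14.2 and 16.9 FPKM (0.23), while methionine synthase itself, MTR, was 6.88 and 6.64 FPKM (-0.04). The counting ranges of MAT2A (1.09 to 1.22), MAT2B (1.03 to 1.31) and MTRR (1.02 to 1.38) were clear of 1. Those of the other genes kept from this list included 1. The share of all genes kept with a range clear of 1 was not worked out. MAT1A, BHMT and BHMT2, genes of liver, were listed at 0 in both libraries.

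MTA that is not cleared inhibits the arginine methyltransferase PRMT5, which makes MTAP-deficient tumour cells depend on it. PRMT5 was 25.3 and 26.0 FPKM (0.04). Its partners were WDR77 at 30.0 and 34.2 FPKM (0.18), CLNS1A at 109 and 108 FPKM (-0.01), RIOK1 at 11.3 and 12.2 FPKM (0.10) and COPRS at 61.0 and 59.6 FPKM (-0.03). None of the 5 passed the size mark, and their median was 0.04. Only WDR77 had a counting range clear of 1, at 1.01 to 1.28.

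Over these 5 lists 27 of 34 genes were kept. Of the 27, 19 were higher and 8 lower, with a median log2 ratio of 0.12 and a range from -0.29 to 0.30, and none passed the size mark. Without the added 1 FPKM, PRPS2 and KYAT1 had log2 ratios above 0.32. The share with a log2 ratio above 0 was 70.4%, against the 49.4% of all genes kept. Genes of a pathway are not independent of each other, and this count has no test. The lists were also chosen with earlier results of these data known, and both shares depend on how the libraries are scaled.

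Both MTAP and CDKN2A, the pair that tumours often lose together, were expressed. CDKN2A was 35.3 and 40.6 FPKM (log2 ratio 0.20, counting range of the ratio 0.99 to 1.34), against 29.9 and 35.5 FPKM (0.24) for MTAP. CDKN2B, a related cell cycle inhibitor beside CDKN2A, was 3.89 and 3.68 FPKM (-0.06). Of 9 genes listed for the region around MTAP, 7 were kept, 5 higher and 2 lower, with a median of 0.03. Over all genes kept, 49.4% had a ratio above 0 and 6.94% passed the size mark as higher. IFNE, an epithelial interferon gene, was the 1 gene of the 7 past the size mark, at 2.00 and 4.88 FPKM (0.97, counting range 1.46 to 4.08). MIR31 and CDKN2A-AS1, the nearest genes on either side of MTAP in RefSeq that the files list, were at 0 in both libraries. MIR31 is a short RNA of 71 nt, so its 0 in an mRNA preparation does not show that it is absent.

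Genes beside the other members did not all move with them. HNRNPDL, which encodes an RNA-binding protein and is the next listed gene before ENOPH1, was 72.4 and 56.9 FPKM (-0.34, counting range 0.70 to 0.88), lower like ENOPH1 and past the size mark. TMEM150C, after ENOPH1, was listed at 0 and at 0.235 FPKM. PDHX, a subunit of pyruvate dehydrogenase that overlaps APIP in RefSeq, was 20.5 and 18.4 FPKM (-0.15), in the direction opposite to APIP. The sources used here do not give the strand setting of the counting, so fragments from the stretch that APIP and PDHX share cannot be assigned with certainty. EHF, on the other side of APIP, was 84.7 and 83.2 FPKM (-0.03). CCDC130 and C19orf53, on either side of MRI1, were 10.9 and 10.9 FPKM and 34.3 and 36.8 FPKM, well above MRI1. TRAPPC12 and RNASEH1, on either side of ADI1, were 10.5 and 11.4 FPKM (0.11) and 14.97 and 13.8 FPKM (-0.11).

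Protein relatives of the members were also listed. PNP, a purine nucleoside phosphorylase of the same family as MTAP, was 31.7 and 38.0 FPKM (0.25, counting range 1.04 to 1.38), against 29.9 and 35.5 FPKM (0.24) for MTAP. MRI1 resembles 3 subunits of eIF2B, the exchange factor of translation initiation, and these were far above it, EIF2B1 at 29.1 and 29.3 FPKM (0.01), EIF2B4 at 17.4 and 20.3 FPKM (0.21) and EIF2B2 at 15.9 and 20.5 FPKM (0.34, counting range 1.14 to 1.45). EIF2B2 was the 1 relative of 6 past the size mark, which 6.94% of all genes kept passed as higher. ADD1 and ADD3, adducins of the membrane skeleton whose fold APIP shares, were 61.9 and 55.6 FPKM (-0.15) and 80.4 and 72.7 FPKM (-0.14). The counting range of ADD1, 0.80 to 1.01, included 1, and that of ADD3, 0.84 to 0.97, did not.

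The genes nearest to each member in level under both diets were found by distance in log2(FPKM + 1) over the 2 libraries. They were CNOT3 and MOGS for MTAP, OSGEPL1 and PRRT3-AS1 for MRI1, PITPNB and KIAA0907 for APIP, FBXO7 and ORMDL3 for ENOPH1, and LARS and CRYZ for ADI1, all within 0.03. Between 58 and 95 genes lay within 0.1 of each member, so these names mark a level and no more.

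Markers of epithelium and of host cells were looked up, which does not identify the cell line. All 10 epithelial markers were expressed, EPCAM at 472 and 444 FPKM, with ratios from KRT19 (1216 and 1010 FPKM, -0.27) to KRT18 (2076 and 2334 FPKM, 0.17). Of 28 markers of host cells in 5 lists, 23 were under 1 FPKM in both libraries, 9 of them at 0 in both. The summed levels on the normal and depleted diets were 4.42 and 3.86 FPKM for 7 fibroblast markers (COL1A1 0.18, LUM -0.61), 0.211 and 0.108 FPKM for 5 endothelial markers, 27.2 and 24.0 FPKM for 7 macrophage and neutrophil markers (CD68 -0.29, CD14 0.55, LAPTM5 0.55), 0 and 0.387 FPKM for 5 muscle markers and 0.506 and 0.501 FPKM for 4 fat cell markers. The lower sum of the macrophage and neutrophil markers came from CD68, at 25.6 and 20.8 FPKM (counting range 0.69 to 0.96). CD14 (0.709 and 1.49 FPKM) and LAPTM5 (0.873 and 1.75 FPKM) were past the size mark as higher. The counting range of CD14, 0.92 to 4.84, included 1, and that of LAPTM5 ran from 1.05 to 3.85. The other 4 of these 7 markers were under 1 FPKM in both libraries, so the sum rests almost wholly on CD68. Host cells are mouse cells and the values are for human genes, and the sources used here do not give a step that removes mouse reads. Of 10 early response genes, which can react to tissue handling, 9 were lower under depleted food and 4 of those past the size mark. The 10 had a median of -0.26, from DUSP1 (-1.04) to IER2 (0.20). Over all genes kept, 7.15% passed the mark as lower and 49.4% had a ratio above 0. What lay behind the values of the early response genes was not tested, nor was their part in those of the salvage enzymes.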

How the data were processed

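The 2 libraries, 1 per diet, were made by TruSeq stranded mRNA preparation (labels' protocols). The authors deposited FPKM for 26255 symbols, per the file headers. The submitters' processing notes name, without roles, Cuffdiff 2.2.1, TopHat2 2.1.1, SAMtools 0.1.18, Bowtie2 2.2.8 and build hg19. The sources used here do not give the annotation or the strand setting.

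FPKM are not counts, so no count model was run. Python 3.11.15 and pandas 2.3.3 were used. The pseudocount was 1 FPKM, which understates differences of scarce genes. A mean of 1 FPKM kept 12414 genes, all 5 members among them. Depth came from the commonest smallest value of FPKM times length, within 25% of the peak, in 121 (normal) and 135 (depleted) low genes with a single transcript of 500 nt or more in GENCODE 29 (GRCh38). The commonest log2 ratio among 2924 genes under 1 FPKM in both libraries gave the step. Counting ranges are approximate, since the authors' transcript lengths may differ. Only the ratio and the size mark were tried on simulated data, with counting error alone and 2-fold differences. Smaller differences, the depth estimate and the counting ranges were not tried.

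Members and lists were chosen with earlier results of these data known. Named genes were the members, 25 partner genes fixed by name, the highest and lowest ratio of each list, the nearest listed gene on each side and the 2 genes nearest in level. PRPS1, MAT1A, BHMT, BHMT2, PNP, EIF2B1, EIF2B4, ADD3, EPCAM and CD14 were added after their values were seen. Neighbours and promoters are from RefSeq (GRCh38.p14), where all 5 members matched.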

Additional observations from a re-analysis of the deposited data

How the results depend on the processing

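No paired analysis was possible because there is 1 library per diet, so none could be left out either. The ratios were recomputed in 7 other ways (pseudocounts of 0.1 and 5 FPKM, scaling to a common sum with and without short RNAs or to a common upper quartile, no filter on low values, and a mean of at least 5 FPKM). The ratio without a pseudocount was added after seeing the data. In none of them did a member change direction or reach a log2 ratio of 0.32 either way. Only the scalings could have changed a direction, because a pseudocount keeps the sign and a filter leaves the ratio as it was. Log2 ratios ran from 0.21 to 0.29 for MTAP, 0.16 to 0.23 for APIP, 0.04 to 0.09 for ADI1, -0.13 to -0.08 for ENOPH1 and -0.10 to -0.03 for MRI1, which has no value at a mean of at least 5 FPKM. Their median ran from 0.04 to 0.11. Depth limits MRI1 most, and with n = 1 no alternative measures the spread between tumours.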
